A study of Homo sapiens with 12 samples.

Results

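The unfolded protein response and the integrated stress response were followed through 36 genes, chosen by name from the 19128 gene symbols of a table that covers 8 RNA-seq libraries. Each of the 36 stood on 1 line of the table, and all 36 passed the filter of a group mean of at least 1 FPKM (fragments per kilobase of transcript, scaled to the sequenced total) that left 10364 genes for testing. They fall into 8 sensors and transcription or translation factors, 10 targets of ATF4 and CHOP, 14 chaperones and folding enzymes driven by ATF6 and XBP1, and 4 genes of ER-associated degradation (ERAD). The cells were HT-29, a human colorectal adenocarcinoma line, infected with a lentivirus that carries a hairpin against MLKL (shMLKL) or against GFP (shGFP, the control), each kept under DMSO or given TBZ for 5 h, with 2 libraries in each of the 4 groups. TBZ combines 20 ng/mL TNFα, 2 µM BV6, which antagonises inhibitors of apoptosis, and 30 µM zVAD-fmk, a caspase blocker. With caspases blocked, TNF can drive necroptosis, the form of lysis that MLKL carries out. An earlier experiment had 4 single libraries, of parental HT-29 (DMSO, or TBZ for 4 h) and of shMLKL cells (DMSO, or TBZ for 12 h). No label says whether a knockdown line is a clone or a pool, so the knockdown and other differences between the 2 lines cannot be told apart. Separate cultures are not stated for the 2 libraries of a group, so a p-value weighs a difference only against the spread of these libraries, and that spread may be technical.

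Misfolded protein in the endoplasmic reticulum (ER) is sensed by the kinases IRE1 (gene ERN1) and PERK (EIF2AK3) and by ATF6. IRE1 removes a short intron from XBP1 mRNA, and spliced XBP1 and cleaved ATF6 then switch on chaperone and ERAD genes. PERK phosphorylates the initiation factor eIF2α, as do kinases that sense amino acid loss, viral RNA and haem, which lowers general translation while ATF4 mRNA is translated more, and ATF4 with CHOP (DDIT3) drives amino acid synthesis, redox and feedback genes. In the intestine this machinery is best known from secretory cells, and IRE1 has been tied to TNF receptor signalling.

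Sequences are shown for the XBP1 intron and for 8 genes whose promoters hold letters of an element that these factors are known to bind, chosen from those whose values by library are given later; further matches are named without their letters. XBP1 mRNA is printed from GENCODE v29, with the 26 bases that the annotated spliced transcript lacks in capitals. The letters cag just before the capitals recur at their end. The exact ends of the stretch that IRE1 removes therefore cannot be read from the sequence alone. The promoter stretches are from RefSeq (GRCh38.p14), with a motif match in capitals. Letters that begin CGTGG or TTGCATCA are matches on the strand opposite to the gene.
XBP1 mRNA: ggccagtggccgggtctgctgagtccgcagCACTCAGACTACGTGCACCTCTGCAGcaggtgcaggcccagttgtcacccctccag
HSPA5 ERSE: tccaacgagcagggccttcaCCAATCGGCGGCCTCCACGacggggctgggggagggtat
CANX ERSE: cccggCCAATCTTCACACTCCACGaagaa
XBP1 ERSE: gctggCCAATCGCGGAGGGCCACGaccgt
HYOU1 ERSE-II: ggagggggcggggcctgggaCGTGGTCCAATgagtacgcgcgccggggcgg
HERPUD1 ERSE-II: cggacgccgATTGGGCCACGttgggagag
HERPUD1 CARE: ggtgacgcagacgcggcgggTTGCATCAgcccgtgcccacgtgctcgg
ASNS CARE: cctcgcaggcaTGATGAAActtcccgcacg
CHAC1 CARE: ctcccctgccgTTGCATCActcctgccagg
PPP1R15B CARE: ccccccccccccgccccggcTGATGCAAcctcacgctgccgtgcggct
As annotated, the 26 bases lie in the coding sequence of XBP1, on the minus strand at chr22:29192112-29192137 in hg19 and chr22:28796124-28796149 in GRCh38. In GRCh38.p14 the HSPA5 stretch is chr9:125241371-125241429 (minus strand), CANX chr5:179698773-179698801 (plus), XBP1 chr22:28800598-28800626 (minus) and HYOU1 chr11:119057254-119057304 (minus). HERPUD1 holds its ERSE-II at chr16:56932016-56932044 and its CARE at chr16:56931946-56931993 (plus). The ASNS stretch is chr7:97872458-97872487 (minus), CHAC1 chr15:40953251-40953280 (plus) and PPP1R15B chr1:204412017-204412064 (minus).

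Promoter windows from 250 bases before to 50 bases after a gene start were available for 35 of the 36 genes. The ER stress response element ERSE, searched on both strands as CCAAT and CCACG with any 9 bases between them, was found in 27 of 35116 windows (0.0769%). Of the 36 genes, CALR, CANX, CRELD2, HSP90B1, HSPA5, PDIA6 and XBP1 held it, so 6 of the 7 holders were chaperones or folding enzymes, and HSP90B1 held 2 matches. ERSE-II, searched as ATTGG and CCACG with any 1 base between them, was found in 19 windows (0.0541%), and HERPUD1, HYOU1 (2 matches) and SDF2L1 held it. CARE, the element bound by C/EBP and ATF4 dimers, was searched as TGATGNAA. It was far more common, at 1270 windows (3.62%), and ASNS, CHAC1, HERPUD1 and PPP1R15B held it. HERPUD1 was the gene of the 36 with both kinds of match. A match describes letters and does not show that a factor binds there.

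**Figure D1:**
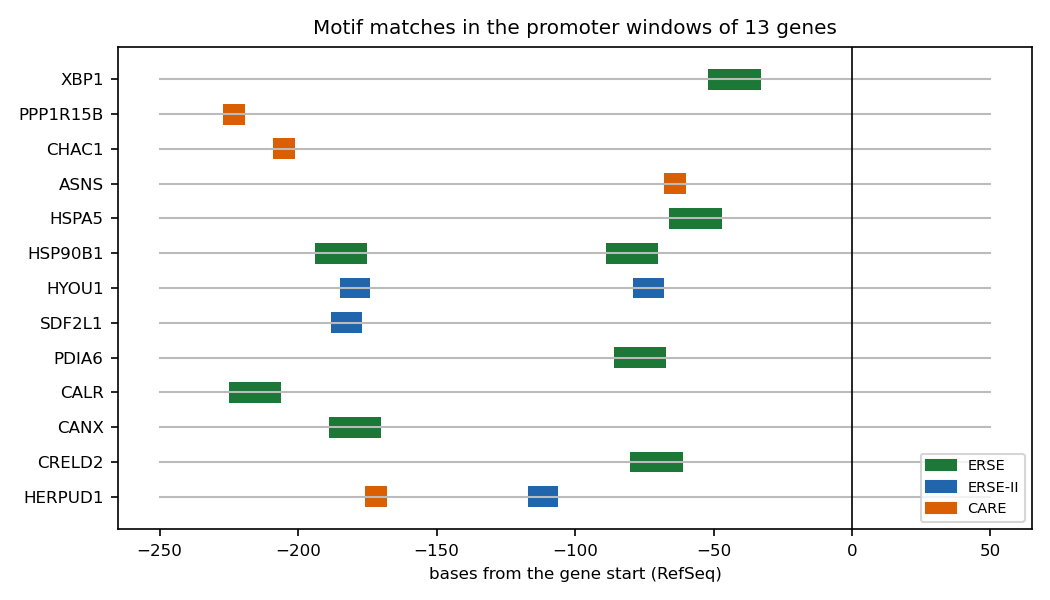
Position of each motif match in the promoter windows of the 13 genes that held one; the x axis is the distance in bases from the gene start and each bar covers the motif. The HSPA5, HSP90B1, XBP1, PDIA6, CRELD2, HYOU1 and ASNS windows each held a match within 100 bases before the start.

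The 8 libraries had 9606 to 10047 genes at 1 FPKM or more, and correlations over genes were 0.989 to 0.992 within a group and 0.928 to 0.967 between groups. MLKL matched the labels: it stood at 3.95 and 3.89 FPKM in shGFP under DMSO, 1.98 and 2.03 after TBZ, and 0.395 to 0.651 in the 4 shMLKL libraries. EPCAM, a defining marker of epithelium, averaged 316 to 389 FPKM by group, whereas the colon factors CDX1 and CDX2 were at most 0.208 FPKM. KRT8 and KRT18 were listed at 0 in 7 of the 8 libraries, and an exact 0 in such a table can be a failed estimate; none of the 36 genes was listed at 0 there. The 9 markers of leukocytes, fibroblasts, endothelium and liver summed to 4.62 and 5.31 FPKM in shGFP under DMSO, 5.23 and 5.46 after TBZ, 5.06 and 4.70 in shMLKL under DMSO and 4.35 and 4.98 after TBZ, with 3 to 6 of the 9 listed at 0 in a library. Nearly all of the sum was CD68, and the lines overlapped in it under DMSO and not under TBZ. All libraries are labelled as the HT-29 line, and whether any cells of these other types were present was not tested. In bulk RNA, fewer cells of a kind and less RNA per cell cannot be told apart.

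TBZ raised 21 of the 36 genes and lowered none in shGFP cells, where 56.4% of all genes tested were called, 19.1% higher and 37.3% lower (limma, Benjamini-Hochberg adjusted p under 0.05). At an unadjusted limma p under 0.05, for which the share of all genes was not computed, 23 were higher and 0 lower in shGFP. TRIB3 was called lower there without shGFP DMSO library 1 (adjusted p = 0.0414), and with quantile normalization CANX, PDIA3, PDIA6 and TRIB3 were. In shMLKL cells TBZ raised 24 and lowered 1, where 37.5% of all genes were called, 20% higher and 17.6% lower. The median log2 change of the 36 was 0.27 in shGFP and 0.22 in shMLKL, beside −0.12 and −0.0044 over all genes. In shGFP 7 of 8 sensors and factors and 6 of 10 ATF4 and CHOP targets rose, with median log2 changes of 0.58 and 0.54, while 6 of 14 chaperones and folding enzymes rose, with a median of 0.07. In shMLKL the medians were 0.27, 0.29 and 0.16, and 10 of the 14 chaperones rose. The 4 ERAD genes had medians of 0.23 and 0.25, with 2 rising in each line. Every class median stood above that of all genes. No test between classes was run.

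**Figure D2:**
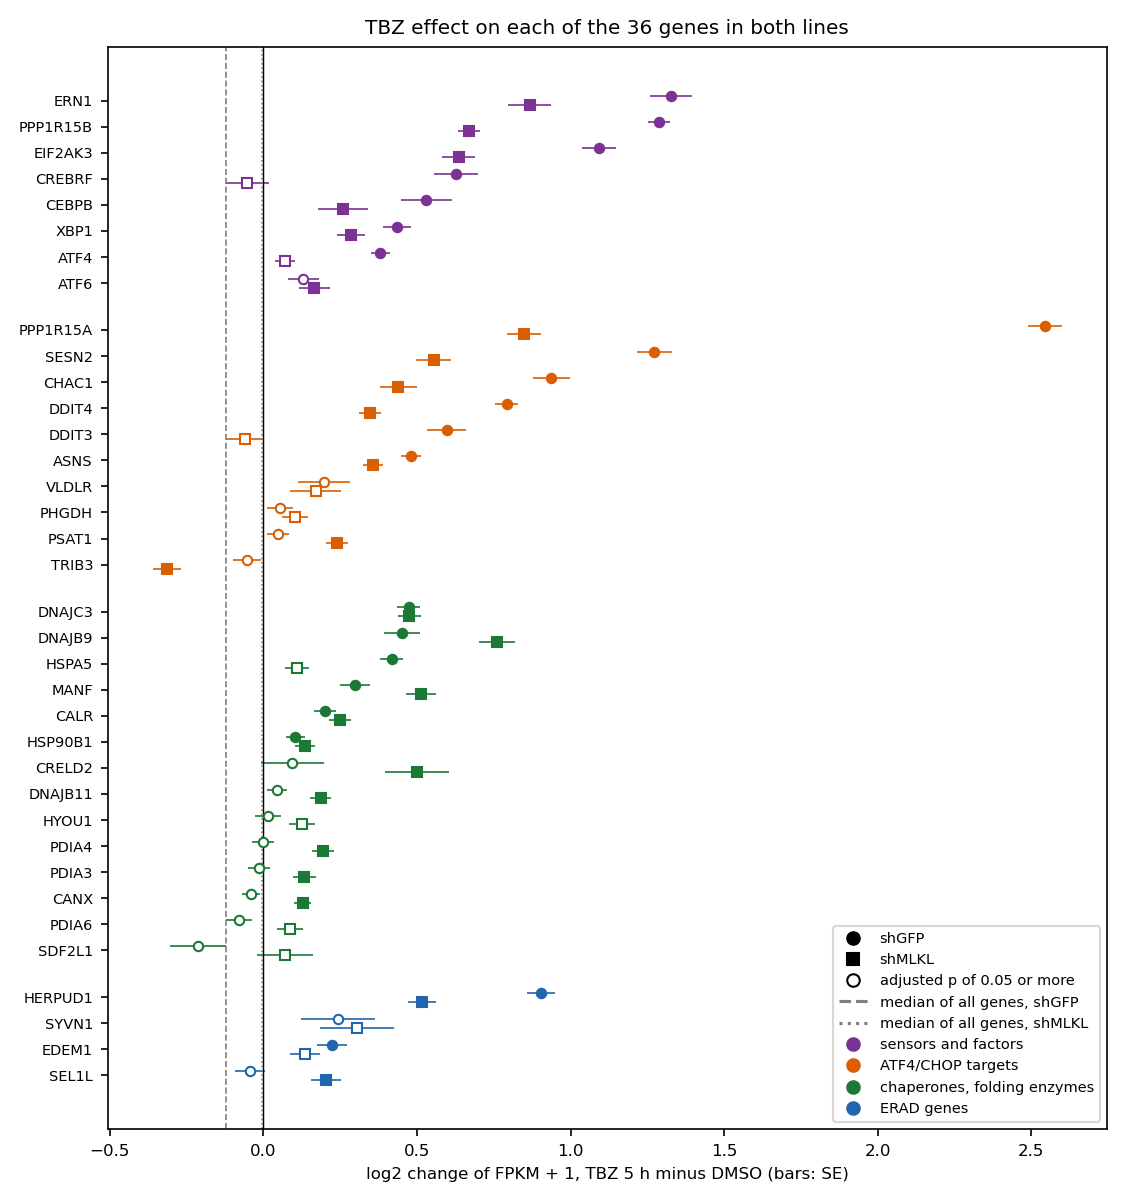
Log2 change of FPKM + 1 after 5 h of TBZ (x axis, bars are standard errors) for each of the 36 genes, circles for shGFP and squares for shMLKL, filled where the adjusted p was under 0.05; vertical lines mark the median of all genes in each line. The widest gap between circle and square is that of PPP1R15A (2.54 against 0.85), and ATF6 is the sensor whose circle lies to the left of its square (0.13 against 0.17).

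Among the sensors, both ER kinases rose in both lines. ERN1, which encodes the kinase and ribonuclease IRE1, was at 5.00 and 5.53 FPKM in shGFP under DMSO, 14.1 and 15.4 after TBZ, 11.2 and 12.3 in shMLKL under DMSO and 22.1 and 22.3 after TBZ. No 2 groups overlapped, and the shMLKL libraries stood above the shGFP libraries in both conditions. TBZ changed it by 1.33 ± 0.07 on the log2 scale (SE, adjusted p = 3.82e-06) in shGFP and by 0.87 ± 0.07 (adjusted p = 7.02e-05) in shMLKL. EIF2AK3, which encodes PERK, was at 5.74 and 5.70 FPKM, rose to 13.7 and 13 in shGFP, and went from 7.01 and 7.62 to 11.9 in both libraries in shMLKL. Its log2 changes were 1.09 ± 0.06 (adjusted p = 3.21e-06) and 0.64 ± 0.06 (adjusted p = 0.00011). ATF6, the sensor that is itself cleaved into a transcription factor, moved little: its group means ran from 14.3 to 17.1 FPKM, with log2 changes of 0.13 (adjusted p = 0.0605) in shGFP and 0.17 (adjusted p = 0.0363) in shMLKL. The second call was lost with library medians set equal (0.0769), with quantile normalization (0.0863), and without shMLKL DMSO library 1 (0.13), DMSO library 2 (0.093) or TBZ library 2 (0.171).

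The factors downstream of the sensors also rose in shGFP. ATF4 mRNA went from 274 and 285 FPKM to 364 in both shGFP libraries, a log2 change of 0.38 ± 0.03 (adjusted p = 4.65e-05). In shMLKL it was at 383 and 381 before TBZ and 406 and 397 after, a change of 0.07 that did not pass the test (adjusted p = 0.118). XBP1 mRNA, whose spliced form encodes the active factor, rose from 173 FPKM in both libraries to 235 and 233 in shGFP (log2 0.44) and from 189 and 171 to 220 and 217 in shMLKL (log2 0.29). CEBPB, a partner of ATF4 on CARE, went from 19.1 and 22.6 FPKM to 29 and 32.1 in shGFP (log2 0.53 ± 0.08, adjusted p = 0.00118). In shMLKL it went from 22 and 21.1 to 26.9 and 25.1; that call (adjusted p = 0.0417) was lost without any 1 of the 4 shMLKL libraries, at adjusted p from 0.0761 to 0.173.

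Among the sensors and factors, CREBRF, an ER-stress-induced regulator of the CREB3 family, had the largest difference of TBZ effects. It was at 3.06 and 2.99 FPKM in shGFP under DMSO and 5.14 and 5.31 after TBZ, but at 2.56 and 2.90, then 2.66 and 2.52, in shMLKL. The shGFP libraries under TBZ stood alone above all others, and the difference of the TBZ effects was −0.68 ± 0.10 (adjusted p = 0.00387). PPP1R15B, the constitutive subunit that directs a phosphatase to eIF2α, was at 22.4 FPKM in both shGFP libraries, rose to 55.9 and 56.3, and went from 33.9 and 34.5 to 53.6 and 56.2 in shMLKL. The lines thus overlapped after TBZ and not before, and the difference of effects was −0.62 ± 0.05 (adjusted p = 0.000241).

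PPP1R15A (GADD34), the stress-induced counterpart of PPP1R15B and the product that lifts the translation block, had the largest TBZ change of the 36 in shGFP; in shMLKL that of ERN1 was slightly larger (0.87 against 0.85). The gene lies on the plus strand at chr19:49375649-49379319 (hg19). It was at 71.7 and 77.5 FPKM in shGFP under DMSO and 446 and 433 after TBZ, 5.89 times the mean under DMSO. In shMLKL it was at 204 and 220 under DMSO and 370 and 394 after TBZ, 1.80 times. The 4 groups did not overlap, and the shMLKL libraries were above shGFP under DMSO and below them under TBZ. The log2 changes by TBZ were 2.54 ± 0.06 (adjusted p = 5.17e-08) and 0.85 ± 0.06 (adjusted p = 2.46e-05), with a difference of effects of −1.69 ± 0.08 (adjusted p = 1.63e-05). The line difference under DMSO was 1.49 ± 0.06 (adjusted p = 1.77e-06). Under TBZ it was −0.20 ± 0.06 (adjusted p = 0.0179), a call lost without shGFP TBZ library 1 (adjusted p = 0.0898), without shMLKL TBZ library 1 (0.1), with library medians set equal (0.116) and with quantile normalization (0.053).

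DDIT3, the gene of the pro-death factor CHOP, differed between the lines more than it moved with TBZ. The gene lies on the minus strand at chr12:57910371-57914300 (hg19). It was at 49.96 and 56.5 FPKM in shGFP under DMSO, 77.5 and 84.3 after TBZ, 147 in both shMLKL libraries under DMSO, and 143 and 139 after TBZ. All 4 shMLKL libraries lay above all 4 shGFP libraries. It rose by 0.60 ± 0.06 (adjusted p = 0.00016) in shGFP, and the change of −0.06 in shMLKL did not pass the test (adjusted p = 0.496). The difference of effects was −0.66 ± 0.09 (adjusted p = 0.00253), and shMLKL was higher by 1.45 under DMSO and 0.80 under TBZ.

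SESN2, a stress-induced inhibitor of mTORC1, was at 12.1 and 13.4 FPKM in shGFP under DMSO, 31.6 and 32.8 after TBZ, 25.7 and 24.8 in shMLKL under DMSO, and 36.4 and 38.7 after TBZ. Its log2 changes were 1.27 ± 0.06 and 0.55 ± 0.06 (adjusted p = 1.72e-06 and 0.000251), and their difference was −0.72 ± 0.08 (adjusted p = 0.00111). The line difference shrank from 0.93 under DMSO to 0.22 under TBZ; the second (adjusted p = 0.015) lost its call without shGFP TBZ library 1 (0.0821) or shMLKL TBZ library 2 (0.0868). CHAC1, which degrades glutathione, was at 6.35 and 6.49 FPKM, then 12.9 and 13.5 in shGFP, and at 10.6 and 9.47, then 14 and 13.9 in shMLKL. It thus began higher in shMLKL (log2 0.57, adjusted p = 0.000147), and the lines differed by 0.07 after TBZ (adjusted p = 0.337).

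DDIT4 (REDD1), another mTORC1 inhibitor, did not differ between the lines under DMSO beyond the test (71.7 and 73.1 FPKM in shGFP, 76.1 and 75.6 in shMLKL, adjusted p = 0.142). With library medians set equal, DDIT4 was called higher in shMLKL under DMSO (log2 0.24, limma adjusted p = 0.000777). After TBZ it was at 126 in both shGFP libraries and at 99.7 and 94.1 in shMLKL. The log2 changes were 0.79 ± 0.04 and 0.35 ± 0.04, with a difference of −0.44 ± 0.05 (adjusted p = 0.00122). TRIB3, a pseudokinase induced by CHOP that dampens ATF4, was the only gene of the 36 called lower by TBZ. It fell in shMLKL from 216 and 215 FPKM to 174 and 173 (log2 −0.31 ± 0.04, adjusted p = 0.00129), while shGFP stood at 147 and 161, then 146 and 151.

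The ATF4 targets also include genes of amino acid synthesis. ASNS, which makes asparagine, rose in both lines, from 297 and 310 FPKM to 424 in both libraries in shGFP (log2 0.48) and from 342 and 350 to 439 and 449 in shMLKL (log2 0.36). The serine synthesis genes PSAT1 and PHGDH were instead lower in shMLKL under DMSO, by log2 −0.42 and −0.19, and under TBZ, by −0.22 and −0.14. With library medians set equal, the PHGDH calls were lost, at −0.02 and −0.07, and the second was also lost without shGFP TBZ library 1 (adjusted p = 0.139), shMLKL TBZ library 1 (0.07) or shMLKL TBZ library 2 (0.0914). VLDLR, a lipoprotein receptor induced through ATF4, was low, with group means of 1.61 to 2.04 FPKM, and was called in none of the 5 comparisons; its change by TBZ in shGFP (log2 0.20, adjusted p = 0.0786) passed the test with library medians set equal (0.26, adjusted p = 0.0372).

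**Figure D3:**
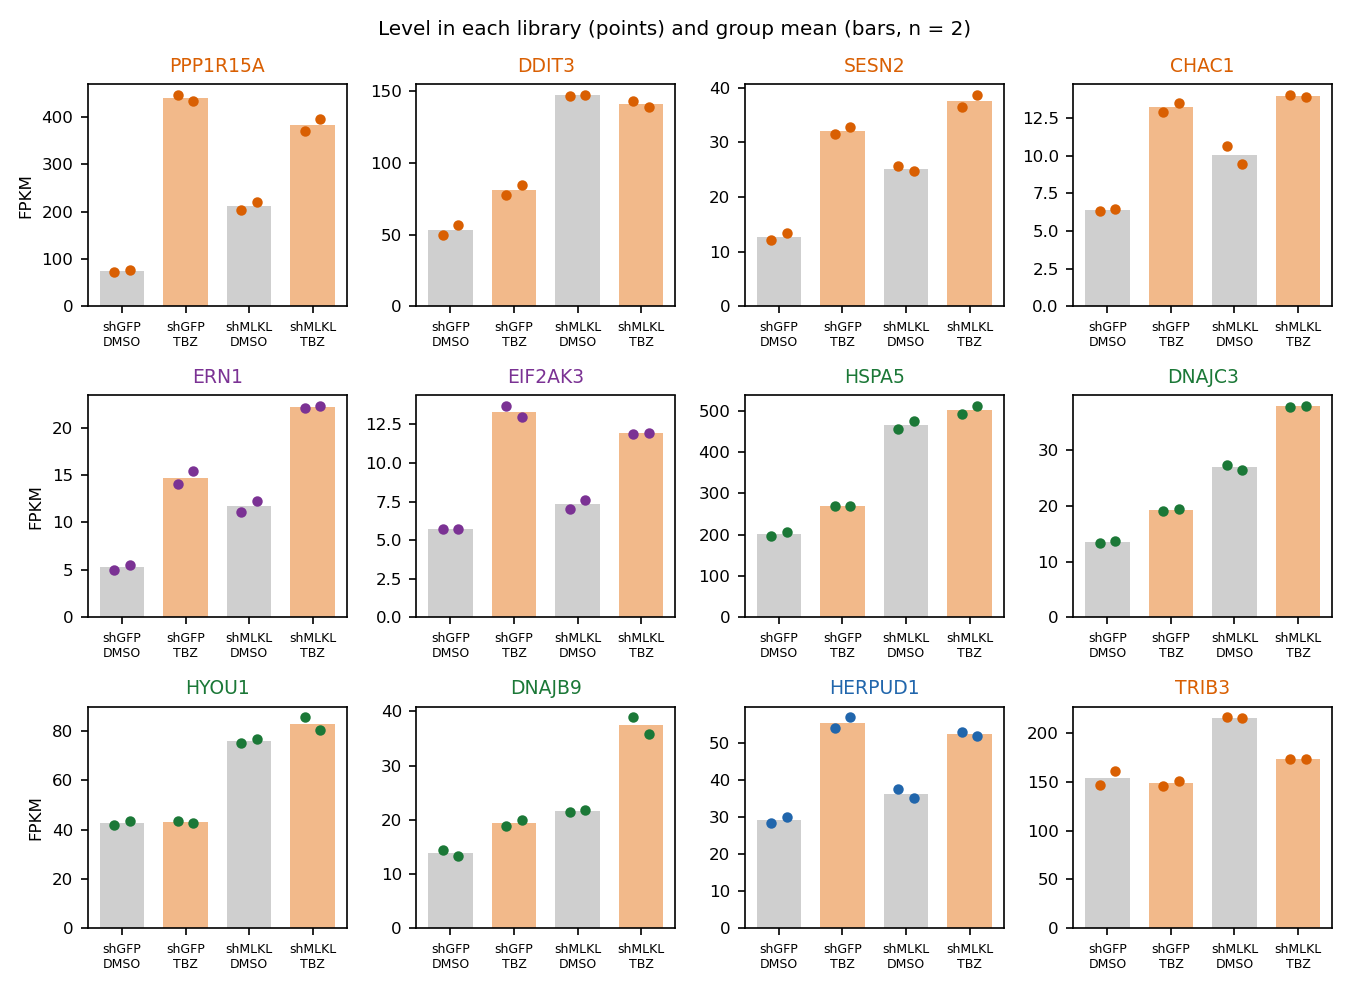
FPKM in each of the 8 libraries (points) with the group mean (bars, n = 2) for 12 of the genes, titles coloured by class, on linear axes from 0. PPP1R15A, SESN2, CHAC1 and EIF2AK3 began higher in shMLKL and were closer between the lines under TBZ. PPP1R15A and EIF2AK3 were then lower in shMLKL. HSPA5, DNAJC3 and HYOU1 stayed apart between the lines.

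HSPA5 (BiP), the main HSP70 of the ER lumen and the brake on all the sensors, lies on the minus strand at chr9:127997127-128003666 (hg19). It was at 197 and 207 FPKM in shGFP under DMSO, 270 in both libraries after TBZ, 456 and 475 in shMLKL under DMSO, and 493 and 512 after TBZ. Each shMLKL library was above each shGFP library. TBZ raised it by 0.42 ± 0.04 (adjusted p = 8.71e-05) in shGFP, and the change of 0.11 in shMLKL did not pass the test (adjusted p = 0.0594). That change passed with quantile normalization (0.12, limma adjusted p = 0.0342) and with a replicate block (0.11, 0.0427). The line difference was 1.20 ± 0.04 under DMSO (adjusted p = 1.54e-06) and 0.89 ± 0.04 under TBZ (adjusted p = 4.79e-06).

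HYOU1, the nucleotide exchange factor and large HSP70 relative that works with BiP, showed a line difference with no called TBZ effect. It was at 41.9 and 43.7 FPKM, then 43.7 and 42.8 in shGFP, and at 75.1 and 77.0, then 85.7 and 80.3 in shMLKL. The line differences were 0.81 ± 0.04 under DMSO and 0.92 ± 0.04 under TBZ (adjusted p = 6.3e-06 and 6.13e-06). DNAJC3 (p58IPK), a BiP cochaperone known as an inhibitor of PERK, responded alike in size in both lines. It went from 13.4 and 13.8 FPKM to 19.0 and 19.4 in shGFP and from 27.4 and 26.5 to 37.8 and 37.9 in shMLKL. The log2 changes were 0.47 and 0.48, each ± 0.04, and the lines differed by 0.94 in both conditions.

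DNAJB9 (ERdj4), a BiP cochaperone and XBP1 target, was at 14.5 and 13.4 FPKM, then 18.9 and 20.0 in shGFP, and at 21.4 and 21.9, then 38.9 and 35.8 in shMLKL. It rose by 0.45 ± 0.06 (adjusted p = 0.000471) and 0.76 ± 0.06 (adjusted p = 5.69e-05), the largest change by TBZ among the 14 in shMLKL. MANF, a secreted ER-stress-induced factor, went from 24.8 and 24.4 FPKM to 31.8 and 29.1 in shGFP and from 33.7 and 33.0 to 49.1 and 46.8 in shMLKL (log2 0.30 and 0.51). DNAJB11 (ERdj3), another BiP cochaperone, was at 41.3 and 42.4, then 43.4 and 42.9 in shGFP, and at 57.3 and 56.1, then 65.3 and 64.0 in shMLKL. CANX (calnexin), the membrane lectin chaperone, was at 181 and 183, then 179 and 175 in shGFP, and at 236 and 235, then 258 in both libraries in shMLKL. For DNAJB11 and CANX the change in shGFP did not pass the test (adjusted p = 0.279 and 0.253), and the shMLKL libraries lay above the shGFP libraries in both conditions. CRELD2, a secreted ER stress protein, was called higher with TBZ in shMLKL (log2 0.50 ± 0.10, adjusted p = 0.00735), from 2.02 and 1.79 FPKM to 2.77 and 3.47.

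The remaining chaperones and folding enzymes were HSP90B1, CALR, SDF2L1, PDIA3, PDIA4 and PDIA6, with TBZ changes between −0.21 and 0.25 on the log2 scale over both lines. HSP90B1 and CALR rose in both lines, by 0.10 and 0.20 in shGFP and by 0.13 and 0.25 in shMLKL. The HSP90B1 rise in shGFP turned to −0.08 with quantile normalization (adjusted p = 0.154) and lost its call without shGFP DMSO library 2 (0.118) or shGFP TBZ library 1 (0.129). In shMLKL its call was lost with quantile normalization (0.117), without shMLKL DMSO library 2 (0.076) and without shMLKL TBZ library 1 (0.0592). The disulfide isomerases PDIA3 and PDIA4 rose in shMLKL by 0.13 and 0.19, and PDIA3 lost that call without shMLKL DMSO library 1 (0.0792), shMLKL DMSO library 2 (0.105) or shMLKL TBZ library 2 (0.134). SDF2L1, at 1.58 to 2.18 FPKM, was called in none of the comparisons.

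Among the ERAD genes, HERPUD1 (HERP), which gathers the degradation complex at the membrane, was at 28.6 and 30.0 FPKM in shGFP under DMSO, 54.2 and 57.1 after TBZ, 37.5 and 35.4 in shMLKL under DMSO, and 53.1 and 52.0 after TBZ. It rose by 0.90 ± 0.05 (adjusted p = 3.49e-06) and 0.52 ± 0.05 (adjusted p = 0.000126), with a difference of −0.39 ± 0.07 (adjusted p = 0.00669), and the lines differed by −0.08 after TBZ (adjusted p = 0.184). Its promoter carries the CARE and the ERSE-II printed above. EDEM1, a lectin that hands glycoproteins to ERAD, and SEL1L, the scaffold of the HRD1 ligase, were higher in shMLKL than in shGFP in both conditions. EDEM1 was at 8.48 and 8.83, then 10.1 and 10.4 FPKM in shGFP, and at 13.6 and 14.5, then 15.6 and 15.5 in shMLKL, and TBZ raised it in shGFP (0.22) but not beyond the test in shMLKL (0.13, adjusted p = 0.0648). SEL1L was at 9.90 and 10.4, then 9.86 and 9.78 in shGFP, and at 13.4 and 14.2, then 16.2 and 15.8 in shMLKL; its rise in shMLKL (0.20) lost its call without shMLKL DMSO library 1 (adjusted p = 0.0795) or shMLKL TBZ library 1 (0.0642). SYVN1, the HRD1 ligase itself, had group means of 6.51 to 10.5 FPKM and was called in 1 comparison, between the lines under TBZ (0.37, adjusted p = 0.0336); without shGFP TBZ library 1 that adjusted p was 0.174 and without shMLKL TBZ library 2 it was 0.189.

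The difference of the 2 TBZ effects was called for 18 of the 36 genes, and for 22.3% of all genes. It was lower in shMLKL for 13, where 7.66% of all genes were called in that direction, and higher for 5, against 14.6%. The 13 were 5 sensors and factors (ERN1, EIF2AK3, ATF4, PPP1R15B and CREBRF), 6 ATF4 and CHOP targets (PPP1R15A, DDIT3, TRIB3, CHAC1, SESN2 and DDIT4), HSPA5 and HERPUD1. Of these, TRIB3 lost its call without a filter, without a trend, with quantile normalization (−0.17, adjusted p = 0.0943) and without any single library other than the shGFP DMSO libraries (adjusted p from 0.0537 to 0.0777). ERN1 lost it without shGFP DMSO library 1 (0.057), shGFP TBZ library 2 (0.0558) or shMLKL DMSO library 2 (0.0504), and HSPA5 with quantile normalization (−0.14, adjusted p = 0.0961). The 5 were PSAT1, DNAJB9, PDIA4, CANX and SEL1L, with differences of 0.17 to 0.31. The count of 5 fell to 0 with library medians set equal, and to 0 or 1 without any single library other than shGFP TBZ library 1, without which it was 4. The median difference was −0.38 for the sensors and factors, −0.35 for the ATF4 and CHOP targets, 0.16 for the chaperones and −0.01 for the ERAD genes, beside 0.10 over all genes. Of the 5 genes called higher by TBZ in shGFP but not in shMLKL, the difference was called for ATF4, CREBRF, DDIT3 and HSPA5 and not for EDEM1. Over the 36 genes the 2 TBZ effects, which share no library, had a Pearson correlation of 0.709 and a Spearman correlation of 0.641, beside a Pearson correlation of 0.698 over all genes.

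Under DMSO alone, 22 of the 36 genes were higher in shMLKL and 4 lower, where 63.1% of all genes were called, 18.3% higher and 44.8% lower. These were 4 of 8 sensors and factors, 6 of 10 ATF4 and CHOP targets, 9 of 14 chaperones and 3 of 4 ERAD genes. The largest differences were those of PPP1R15A, DDIT3, HSPA5 and ERN1, between 1.49 and 1.02. The 4 lower were PSAT1, PHGDH, PDIA6 and CRELD2, of which PSAT1 alone remained called with library medians set equal. CRELD2 also lost its call without shGFP DMSO library 1 (adjusted p = 0.141) or shMLKL DMSO library 2 (0.123). That setting moved the median of all genes from −0.16 to 0.0075 and the share of calls that were higher from 29% to 53.1% (47.5% with quantile normalization). For the other comparisons the share that were higher went from 33.9% to 44.5% (TBZ in shGFP), 53.2% to 45.8% (TBZ in shMLKL), 65.6% to 38.9% (difference of effects) and 40% to 54.6% (lines under TBZ).

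Under TBZ, 18 of the 36 genes were higher in shMLKL and 5 lower, where 51.7% of all genes were called, 20.7% higher and 31% lower. By class, 10 of 14 chaperones and 3 of 4 ERAD genes were higher and none lower. These counts were the same at an unadjusted limma p under 0.05, for which the share of all genes was not computed. Of the ATF4 and CHOP targets 3 were higher and 4 lower, and of the sensors and factors 2 were higher and 1 lower. The median difference of the chaperones was 0.30 under DMSO and 0.47 under TBZ, while that of the ATF4 and CHOP targets was 0.34 and then 0.04. Over all genes the median also moved, from −0.16 under DMSO to −0.06 under TBZ. CREBRF (−0.79 ± 0.07, adjusted p = 0.000104) and DDIT4 (−0.38 ± 0.04, adjusted p = 0.000135) were the largest of the 5 lower. The count of 5 was 3 with library medians set equal, with quantile normalization, without shGFP TBZ library 1 and without shMLKL TBZ library 1. The summed level of the 10 ATF4 and CHOP targets was 848 and 891 FPKM in shGFP under DMSO, 1468 and 1459 after TBZ, 1172 and 1189 in shMLKL under DMSO, and 1447 and 1476 after TBZ. The lines overlapped after TBZ. The sum over the 14 chaperones was 1283 and 1278, then 1407 and 1376 in shGFP, and 1703 and 1717, then 1903 and 1926 in shMLKL, with no overlap between any groups. Both sums are weighted to abundant genes. PPP1R15A alone averaged 74.6 FPKM under DMSO and 439 after TBZ in shGFP. HSPA5 alone averaged 202 FPKM in shGFP and 466 in shMLKL under DMSO. The line differences under DMSO and under TBZ, which share no library, had a Pearson correlation of 0.576 and a Spearman correlation of 0.620 over the 36 genes, beside a Pearson correlation of 0.611 over all genes.

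**Figure D4:**
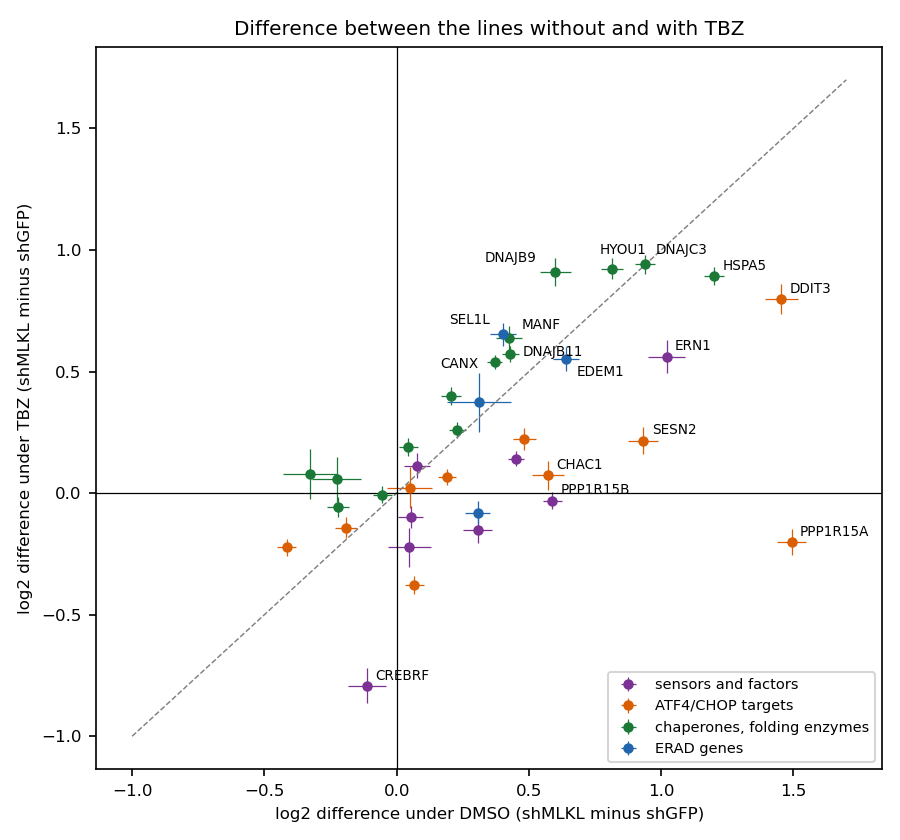
Log2 difference between the lines (shMLKL minus shGFP) under DMSO (x axis) and under TBZ (y axis) for the 36 genes, with standard errors, coloured by class; the dashed line marks equal differences. CHAC1 and PPP1R15B lie near 0 on the y axis (0.07 and −0.03) but to the right on the x axis. PPP1R15A lies furthest to the right and below 0 on the y axis (−0.20). HSPA5, DNAJC3, HYOU1 and DNAJB9 lie above 0.8 on the y axis.

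Further genes of the same pathways were read from lists that do not hold the 36. Of 27 other ATF4 and CHOP targets tested, TBZ raised 16 and lowered 4 in shGFP, against 19.1% and 37.3% of all genes, and raised 12 and lowered 4 in shMLKL, against 20% and 17.6%. ATF3, a stress-induced repressor of the ATF family, went from 14.9 and 15.6 FPKM to 202 and 192 in shGFP and from 30.3 and 33.9 to 75.5 and 80.2 in shMLKL, with a difference of effects of −2.35 ± 0.08 (adjusted p = 6.78e-06). TNFRSF10B, the TRAIL receptor DR5, rose by 1.67 and 1.42. GDF15, a secreted stress cytokine, moved in opposite directions: it rose in shGFP from 64.2 and 69.7 to 148 and 151 and fell in shMLKL from 174 and 169 to 117 and 111. Under DMSO, 16 of the 27 were higher in shMLKL and 6 lower, and under TBZ 9 were higher and 8 lower, against 18.3% and 44.8%, then 20.7% and 31%, of all genes.

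Of 30 other ER folding and translocon genes tested, 5 rose and 8 fell in shGFP, 9 rose and 1 fell in shMLKL, and 18 were higher in shMLKL under DMSO and 19 under TBZ, with 5 and 2 lower. Over all genes 19.1% rose and 37.3% fell in shGFP, and 20% rose and 17.6% fell in shMLKL. Between the lines 18.3% of all genes were higher in shMLKL under DMSO and 20.7% under TBZ, with 44.8% and 31% lower. HSPA13, an HSP70 relative of the microsome, had the widest line difference, at 5.49 and 6.97 FPKM in shGFP and 28.3 and 28.6 in shMLKL under DMSO (log2 2.03 ± 0.09). FKBP14, a prolyl isomerase, rose in both lines (0.41 and 0.28), and CDNF, a relative of MANF, fell in shGFP from 0.895 and 1.40 to 0.568 and 0.572. Of 19 other ERAD genes 6 rose and 5 fell in shGFP, and 7 rose and 3 fell in shMLKL; among them VIMP and EDEM3 rose in both lines, and DERL2 fell in shGFP (−0.46 ± 0.07). Of 19 other kinases, sensors and eIF2 genes 2 rose and 7 fell in shGFP, and 2 rose and 1 fell in shMLKL. In both lines the share that rose was below that of all genes, and in shGFP the share that fell was near it. No test of these shares was run. CREB3L1, an ATF6-like membrane factor, fell in both lines, from 8.63 and 8.01 to 2.16 and 2.45 FPKM in shGFP and from 7.92 and 8.02 to 3.25 and 2.98 in shMLKL. CREB3 rose in both (0.52 and 0.64), and MBTPS2, the protease that makes the second cut in ATF6, fell in shGFP (−0.37 ± 0.08, adjusted p = 0.00447).

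In the first experiment each condition was 1 library, so its values are given without a test and with no replicate check. MLKL, over its RefSeq transcripts, was at 6.31 (DMSO) and 6.16 FPKM (TBZ for 4 h) in parental cells and at 0.854 (DMSO) and 2.14 (TBZ for 12 h) in shMLKL. Past a 2-fold change, 5 of 35 genes were higher and 1 lower after 4 h of TBZ in parental cells, where 8.99% and 13.1% of all genes were. After 12 h in shMLKL 2 were higher and 1 lower, where 9.14% and 10.6% were. Between shMLKL and parental cells under DMSO 8 were higher and none lower, where 6.82% and 6.21% were. ERN1 was left out of these counts because its RefSeq transcript was listed at 0 in all 4 libraries. On assembled transcripts ERN1 was at 11.1 FPKM with DMSO and 36.3 with TBZ for 4 h in parental cells. In shMLKL it was at 12.5 with DMSO and 9.24 with TBZ for 12 h. Several of the genes counted rest on an exact 0 or on how reads were divided between RefSeq and assembled transcripts. The 1 lower after 4 h was SDF2L1, at 13 FPKM and then listed at 0. CEBPB, listed at 0 in the parental DMSO library and at 120 after TBZ, was counted as higher after 4 h and between the lines; with assembled transcripts its ratios were 1.44 and 0.982. After 12 h the 1 lower was HSPA5 (ratio 0.375, and 0.959 with assembled transcripts), and 1 of the 2 higher was PPP1R15B (2.51, and 1.17 with them). For 17 of the 36 genes no assembled transcript stood beside the RefSeq ones in any library, and the values that follow are, unless said otherwise, of those 17, a choice made after the data were seen.

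EIF2AK3 was at 5.14 FPKM with DMSO and 16.1 with TBZ for 4 h in parental cells, and at 3.97 and 3.53 with DMSO and TBZ for 12 h in shMLKL. DNAJB9 was at 17.4 and 39.5, then 24.7 and 24.3, and HERPUD1 at 50.1 and 92.8, then 109 and 119. These 3 had the largest ratios of TBZ to DMSO among the 17 in parental cells, and in shMLKL their 2 libraries were within 1.13-fold of each other. Among the ATF4 and CHOP targets of the 17, ASNS went from 158 to 249 FPKM in parental cells, a ratio of 1.58. DDIT4 went from 163 to 181, a ratio of 1.11. The others did not rise by more than a ratio of 1.02: DDIT3 was at 140 and 141 FPKM, TRIB3 at 382 and 371, PSAT1 at 161 and 164 and PHGDH at 45.0 and 40.5. CHAC1 was at 30.7 and 21.1, a ratio of 0.687, whereas it was called higher after 5 h in shGFP. PPP1R15A, on its RefSeq transcript, was at 99.5 and 742 in parental cells and at 69.8 and 156 in shMLKL. With assembled transcripts the first of these PPP1R15A values was 143. SESN2, also outside the 17, went from 23.6 to 60.8 in parental cells, a ratio of 2.58 (2.29 with assembled transcripts). In shMLKL it was at 32.8 and 30.5. VLDLR, outside the 17 as well, had a ratio of 0.919 in parental cells. HSPA5 was at 173, 317, 196 and 73.6 FPKM in the 4 libraries on its RefSeq transcript and at 410, 784, 343 and 329 with assembled transcripts, so the low value at 12 h depended on how the transcripts were divided.

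The line difference under DMSO was not the same in the 2 experiments, in which the comparison line also differed (parental cells here, shGFP there). DDIT3 was at 140 FPKM in parental cells and 137 in shMLKL, while in the second experiment shMLKL had 2.77 times the shGFP level. PPP1R15A was at 99.5 FPKM in parental cells and 69.8 in shMLKL (ratio 0.701, or 0.487 with assembled transcripts). In the second experiment its ratio was 2.84. TRIB3 had a ratio of 0.776 here and 1.40 there. ERN1, on assembled transcripts, had a ratio of 1.12 here and 2.23 there. SESN2 (1.39 and 1.98) and HERPUD1 (2.18 and 1.24) were higher in shMLKL in both. PSAT1 and PHGDH were at 161 and 45.0 FPKM in parental cells and at 353 and 99.8 in shMLKL, 2.19 and 2.22 times as high, while in the second experiment shMLKL had 0.748 and 0.872 times the shGFP level. CHAC1 was higher in shMLKL in both, at 30.7 against 128 FPKM here. ASNS and DDIT4 were also higher here, at 158 against 375 and 163 against 414 FPKM. Of the 14 chaperones and folding enzymes, 4 had a positive and 10 a negative log2 difference between shMLKL and parental cells. Their median was −0.16 beside 0.05 over all genes. In the second experiment 10 were positive and 4 negative, with a median of 0.30 beside −0.16, and 9 were called higher and 2 lower. Some signs here rest on the RefSeq transcripts. With assembled transcripts the ratio went from 1.13 to 0.837 for HSPA5, 1.28 to 0.614 for CANX and 0.932 to 2.04 for MANF. HYOU1, DNAJC3 and PDIA4 had ratios of 0.737, 0.498 and 0.552, or 0.725, 0.642 and 0.724 with assembled transcripts.

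The first experiment also separates XBP1 transcripts with and without the 26 bases printed above. With RefSeq and assembled transcripts together, forms that lack them made up 11.5% of XBP1 FPKM in the parental DMSO library, 19.2% in parental cells given TBZ for 4 h, 19% in the shMLKL DMSO library and 26.6% in shMLKL cells given TBZ for 12 h. The share was higher with TBZ than without in each line. On RefSeq transcripts alone it was 23.9%, 31.8% and 34.7% in the first 3 libraries. In the library at 12 h the spliced RefSeq transcript was listed at 0, and an assembled transcript with the same gap took 74.3 FPKM. The files give no read counts for the junction, so these shares have no counting interval. The deposited intervals of the spliced RefSeq transcript were 35.9 to 41.4 FPKM in the parental DMSO library and 77.8 to 86.7 in the parental library given TBZ for 4 h.

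**Figure D5:**
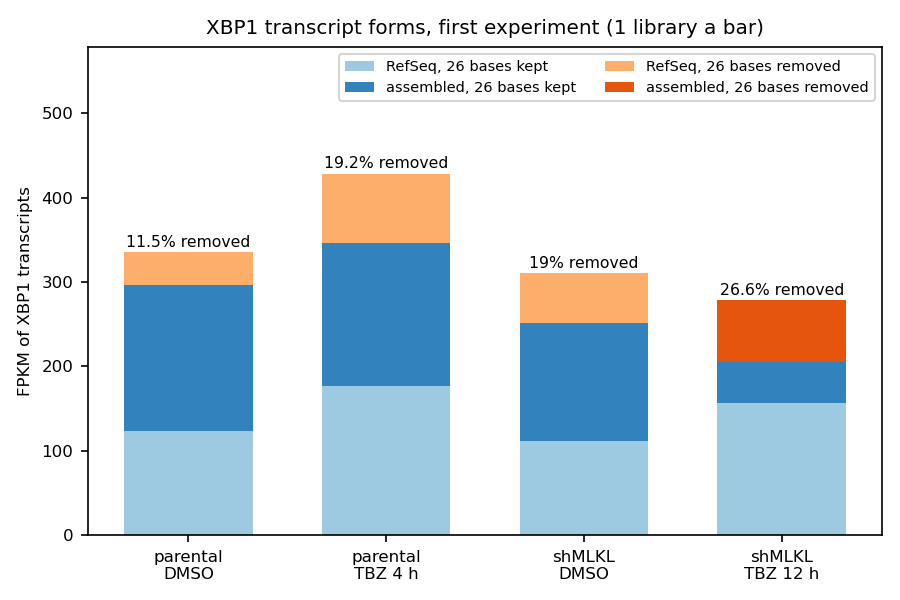
FPKM of XBP1 transcripts (y axis) in the 4 single libraries of the first experiment, stacked by whether the transcript keeps or lacks the 26 bases and by whether it is a RefSeq or an assembled transcript; the percentage above each bar is the share that lacks them. The share was 11.5% and 19.2% in parental cells without and with TBZ, and 19% and 26.6% in shMLKL cells.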

How the data were processed

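The labels describe polyadenylated RNA sequenced as 100 nt paired-end reads from stranded libraries. The submitters' processing notes name STAR 2.4.0f1, GATK, Cufflinks 2.2.1 and TopHat2 2.0.13 with hg19, in no stated role. The authors deposited 1 gene table for 8 libraries, whose header names no unit and which was taken as FPKM. For the first 4 libraries they deposited Cufflinks transcript lists with FPKM, whose score column was not used. No read counts were given, so absolute depth is unknown; the steps between low values put the 8 libraries at 82.9 to 100% of the deepest. How reads matching several places were divided is not given in the sources used here, which makes ATF4, HSP90B1 and PSAT1, genes with pseudogenes, less certain. Of several lines for 1 symbol, that with the highest mean was used. limma 3.58.1 (R 4.3.3) was fitted to log2(FPKM + 1) over all 8 libraries with 4 group means, no block and a mean-variance trend (4 residual and 3.46 prior degrees of freedom). Fold changes on this scale understate those of low genes. P-values were two-sided and adjusted by Benjamini-Hochberg over 10364 genes, with calls under 0.05. The procedure was tested on simulated data. Genes of the 36 called with an absolute log2 change of at least 0.5 in some comparison were described library by library, and from each other list the 3 called genes with the largest change by TBZ were named. The members and lists were chosen with earlier results of these data known. In the first experiment the FPKM of a gene's RefSeq transcripts were summed.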

Additional observations from a re-analysis of the deposited data

Results flagged for a closer look

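The TBZ effect differed between the lines, by the test of the difference itself (limma, adjusted p under 0.05), for 18 of the 36 genes. Among sensors and factors the difference of log2 changes (shMLKL minus shGFP) was −0.46 for ERN1, −0.46 for EIF2AK3, −0.31 for ATF4, −0.62 for PPP1R15B and −0.68 for CREBRF. Among ATF4 and CHOP targets it was −1.69 for PPP1R15A, −0.66 for DDIT3, −0.26 for TRIB3, −0.50 for CHAC1, −0.72 for SESN2, −0.44 for DDIT4 and 0.19 for PSAT1. Among chaperones it was −0.31 for HSPA5, 0.31 for DNAJB9, 0.19 for PDIA4 and 0.17 for CANX, and among ERAD genes −0.39 for HERPUD1 and 0.25 for SEL1L. The calls of ERN1, TRIB3, HSPA5 and the 5 positive differences were each lost in some setting or without some library.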

How the results depend on the processing

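The settings tried were pseudocounts of 0.1 and 0.5, no filter, a group mean of at least 5 FPKM, library medians set equal, quantile normalization, sums over distinct lines of a symbol, empirical Bayes without a trend, a replicate block, only the libraries of the comparison, and each library left out, its partner then being assumed to vary like the other groups. Calls kept direction and threshold in all of them for 20 of 21 genes (TBZ in shGFP), 20 of 25 (TBZ in shMLKL), 10 of 18 (difference of effects), 23 of 26 (lines under DMSO) and 19 of 23 (lines under TBZ). The 5 genes with a higher TBZ effect in shMLKL became 3 without a filter, 0 with medians equal, 0 without a trend and 0 to 4 with a library left out. The genes lower in shMLKL went from 4 to 1 under DMSO with medians equal, and from 5 to 3 under TBZ with medians equal or quantile normalization, or 3 to 7 with a library left out. The genes lowered by TBZ in shGFP went from 0 to 4 with quantile normalization and 0 to 1 with a library left out. Of 113 called changes, that of HSP90B1 by TBZ in shGFP changed sign, to −0.0778 with quantile normalization. Of 67 uncalled ones 29 did so in some setting. With medians equal, TRIB3 and CANX stood at 0.0105 and 0.0241 for TBZ in shGFP and PPP1R15B at 0.0464 between the lines under TBZ; with quantile normalization HYOU1 stood at −0.0115 for TBZ in shGFP and PPP1R15B at 0.0016. With a library left out, TRIB3 ranged from −0.119 to 0.0118 and HYOU1 from −0.0153 to 0.0466 (TBZ in shGFP), CREBRF from −0.12 to 0.0137 (TBZ in shMLKL), and PPP1R15B from −0.0641 to 0.0031 (lines under TBZ). The cause was not tested. Libraries with the same number were not treated as pairs, and the labels give them only that number in common. Their deviations from group means correlated by −0.0677 to 0.0268, which cannot show whether they share a culture or a preparation. With the replicate block the counts higher and lower were 23 and 0, 26 and 1, 5 and 13, 23 and 4, and 18 and 5, in the order above. For the first experiment, adding assembled transcripts was chosen after seeing the data. With 2 libraries a group, no counts and unknown depth, the counting error of low genes such as SDF2L1 is not known, and a missed threshold does not show that a gene was unchanged.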
